A study of Drosophila melanogaster with 42 samples.

Results

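The genes described here are 10 Polycomb group and trithorax group genes, taken as possible targets of the chromatin proteins that the study mapped. They are kis, trr, trx and brm of the trithorax group, and Pc, Psc, Su(z)2, ph-p, ph-d and E(z) of the Polycomb group, 10 of the 17684 genes that RefSeq release 6 annotates on X, 2L, 2R, 3L, 3R and 4. The rule names the genes and sets no peak threshold. All 10 were found in the annotation and paired with a FlyBase identifier. For each, the base pairs of the gene body, and of the body extended by 1 kb on both sides, that lay in a peak were counted in each of 7 peak lists.

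The lists came from targeted DamID-seq of intestinal stem cells (ISCs) of the adult Drosophila gut. A bacterial adenine methylase, Dam, fused to a chromatin protein marks GATC sites near which the protein sits, and the marked DNA is then cut out and sequenced. The fusions were UAS-DamKis, UAS-DamTrr, UAS-DamBrm, UAS-DamPolII, UAS-DamPolycomb, UAS-DamHP1 and UAS-DamH1, with 3 samples each, and they were set against 11 UAS-Dam samples that express the methylase alone. Every sample, the Dam-only ones included, carried esg-gal4ts NREGal80, a driver that is active in ISCs, with the Gal80 repressor made in cells where Notch is on. Flies were raised at 18°C until 3 days of age and held at 29°C for 1 day, and DNA came from the pooled intestines of 60 flies per sample. Replicates 2 and 3 of HP1 and H1 carry other numbers in their genotype labels (HP2, HP3, H2 and H3) and were placed by their titles. The 10 RNA-seq samples of sorted ISCs in the series were not analysed here.

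Polycomb group proteins keep genes silent through development, and trithorax group proteins counter them and keep genes active. E(z) is the enzyme of Polycomb repressive complex PRC2 and methylates lysine 27 of histone H3, a mark read by Pc, a subunit of the PRC1 complex together with Psc or its paralogue Su(z)2 and the Polyhomeotic proteins. On the other side, Trx and Trr methylate lysine 4 of histone H3 within COMPASS-like complexes, Brm is the motor of the SWI/SNF remodelling complex, and Kis is the fly relative of the remodellers CHD7 and CHD8. Polycomb proteins are known to bind some of their own genes in flies.

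Each list holds only the position of a peak, a run of at least 2 consecutive GATC sites significantly enriched over Dam-only, with no height and no value per replicate. The lists held 4563 Kismet, 4840 Trr, 1569 Brm, 6821 RNA Pol II, 2236 Pc, 2197 HP1 and 129 H1 peaks, whose median lengths ran from 259 bp for Brm to 1783 bp for Kismet. Neither the read depth nor an error can be read from them, and no test between genes or proteins was possible, so every value below is one pooled measurement. A gene without a peak was not called at the depth and GATC spacing of that list, which does not show that the protein was absent. The Kismet and RNA Pol II lists have their 3 Dam-only samples in common, as do the Brm, HP1 and H1 lists, and Pc shared 1 of its 3 with Brm, HP1 and H1. Trr shared none. Values of lists with common controls stand side by side here, and where their peaks have like positions this is no result, since it can come from the shared Dam-only samples. RNA Pol II peaks covered 100% of the ISC genes esg and Sox21a and 26.4% of spdo, against 0.977% of pros and 0 bp of Tk and Dh31, markers of enteroendocrine cells, and 0 bp of both haemocyte markers, Hml and He. Of the other markers, they covered 86.5% of E(spl)m3-HLH and 8.72% of klu in enteroblasts, 55.6% of Myo31DF, 6.43% of nub and 0 bp of betaTry in enterocytes, and 10.3% of Mef2 and 0 bp of Mhc in muscle. Of 4 ISC markers chosen, 3 were found in the annotation, and Dl was not, so it has no value here.

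Most of the 10 genes carried Kismet, Trr and RNA Pol II peaks, 4 carried Pc peaks, and few carried Brm or HP1 peaks and none H1 peaks. Kismet peaks touched 8 of the 10 gene bodies, against 23.5% of all genes. Trr peaks touched 8 of 10, against 20.5% of all genes. RNA Pol II peaks touched 9 of 10, against 41.5% of all genes. Pc peaks touched 4 of 10, against 5.21% of all genes. Brm peaks touched 2 of 10 (5.95% of all genes), HP1 peaks 1 of 10 (4.64%) and H1 peaks 0 of 10 (0.532%).

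These genes are long, and long genes meet a peak more often. The 10 bodies span 3556 to 40089 bp with a median of 12022.5 bp, against a median of 1710 bp over all genes, and 6 of the 10 fall in the longest decile of the annotation. Averaged over the length deciles to which the 10 genes belong, 52% of genes had Kismet peaks, 43.8% had Trr peaks, 59.1% had RNA Pol II peaks, 12.5% had Pc peaks, 21.9% had Brm peaks and 11.7% had HP1 peaks. Read against genes of like length, the counts of 2 with Brm and 1 with HP1 peaks are close to the background, and the counts for Kismet, Trr, RNA Pol II and Pc are above it by less than the comparison with all genes shows.

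**Figure D1:**
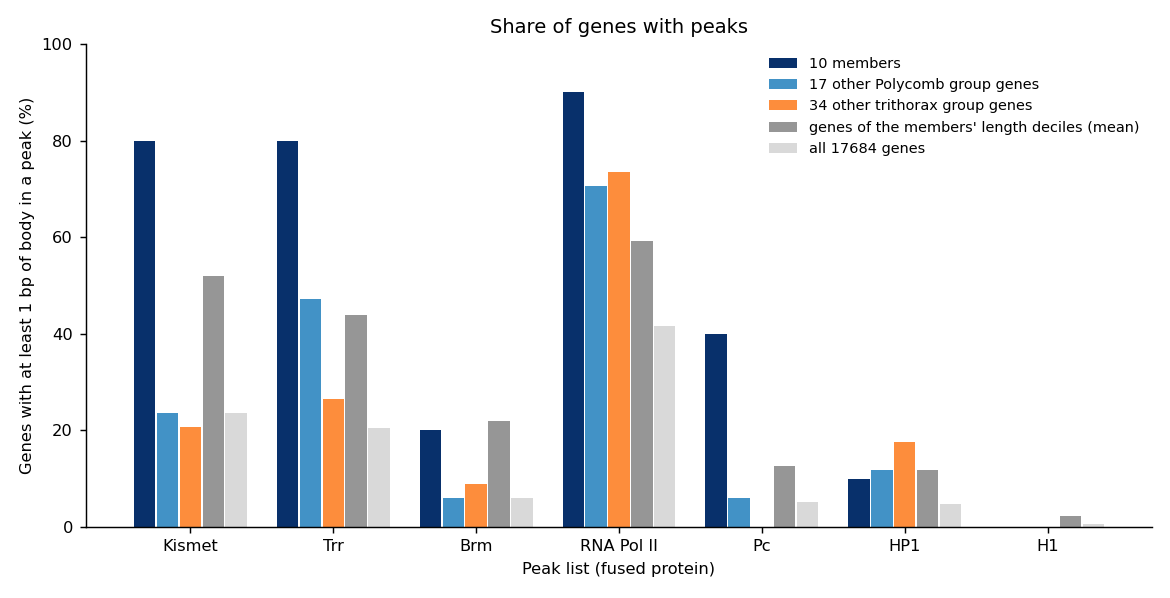
Share of genes with at least 1 bp of the gene body in a peak (%, vertical axis) in each of the 7 peak lists (horizontal axis), for the 10 genes, 17 other Polycomb group genes, 34 other trithorax group genes, the mean over the length deciles of the 10 genes, and all 17684 genes. The bars of the 10 genes stand at 80% for Kismet and Trr, 90% for RNA Pol II and 40% for Pc, and the grey bar of genes of like length reaches 52% for Kismet.

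Extending each body by 1 kb changed none of these 7 counts of members, while the share of all genes rose to 30.3% for Kismet, 28.5% for Trr, 8.01% for Brm, 49.3% for RNA Pol II, 6.54% for Pc, 6.92% for HP1 and 0.65% for H1. Peaks that came within 1 kb of a member without touching it were few. A Kismet peak of 888 bp and an RNA Pol II peak of 1689 bp ended 900 bp below brm, a Kismet and an RNA Pol II peak of 1206 bp each ended 468 bp below ph-d, a Pc peak began 132 bp above ph-d, and single RNA Pol II peaks ended 820 bp below Pc and 83 bp below ph-p.

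In base pairs the picture depends on single genes. Kismet peaks covered 28.1% of the summed bodies of the 10 genes, against 14.7% of all gene bodies. Of the 41201 bp, however, 24610 bp (59.7%) lay in kis itself, and without kis the share was 15.6%. Trr peaks covered 12% of the members, against 5.08% of all gene bodies, of which ph-p gave 25.2% and trr 24.9%, and without trr the share was 9.58%. RNA Pol II peaks covered 15.3% of the members, against 12.4% of all gene bodies, but kis gave 43.6% of these base pairs and without it the share was 11.9%, below that of all gene bodies. Pc peaks covered 22.6% of the members, against 3.24% of all gene bodies, and the 4 genes that gave this lie as neighbours in 2 places in the genome.

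**Figure D2:**
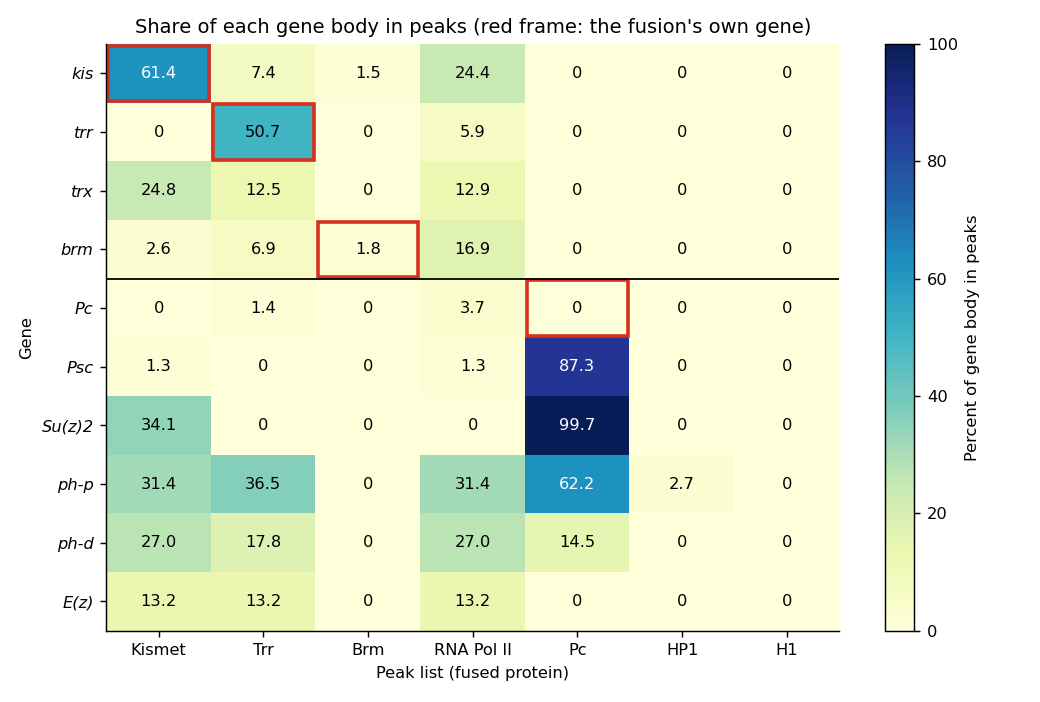
Percent of each gene body in peaks (colour, 0 to 100%, with the value printed in each cell) for the 10 genes (rows, trithorax group above the line, Polycomb group below it) in the 7 peak lists (columns). Red frames mark the gene that encodes the fused protein: it was covered over 61.4% for kis and 50.7% for trr, but over 1.8% for brm and 0% for Pc.

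kis encodes a chromatin remodeller and is the longest of the 10, with 40089 bp at 2L:210735-250823 (FBgn0266557). It held 9 Kismet peaks, of 112 to 11232 bp, that together covered 24610 bp or 61.4% of the body. The first began 1538 bp inside the lower-coordinate end of the gene and the last stopped 4171 bp short of the higher-coordinate end, so that none crossed a gene end. Trr peaks covered 2951 bp (7.36%) of kis in 2 peaks, and Brm peaks covered 618 bp (1.54%) in 2 peaks. RNA Pol II peaks covered 9793 bp (24.4%) in 5 peaks. Other genes nested in kis held 2091 bp of its Kismet and 1054 bp of its RNA Pol II coverage. kis thus had peaks in 4 of the 7 lists, and the Pc, HP1 and H1 lists had none in or within 1 kb of it.

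The Trr and Brm peaks in kis marked the same pair of places. One Trr peak of 2499 bp and a Brm peak of 323 bp lay together, the first beginning 10214 bp into the gene, at 2L:220949-223447 and 2L:221006-221328. The other pair, a Trr peak of 452 bp and a Brm peak of 295 bp, ended at the same GATC site as the last Kismet peak, at position 246652. An RNA Pol II peak of 6598 bp also began there, at 246201, where the Trr peak began, and ran past the higher-coordinate end of kis over the neighbouring gene Rpp30, which lies 215 bp away. All 618 bp of Brm peaks lay inside Trr peaks, and all 2951 bp of Trr peaks lay inside Kismet peaks.

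The Dam-Kis transgene carries a kis cDNA, which the Dam-only flies lack, so methylated copies of the transgene can add reads to the exons of kis in the Kismet list and nowhere else. The positions alone cannot tell the transgene from the chromosomal gene. Of the 24610 bp of Kismet peaks in kis, 2951 bp (12%) were also in a Trr, Brm, Pc, HP1 or H1 peak, and 7 of the 9 peaks touched none. In the other 9 genes 75.9% of the Kismet base pairs were also in one of those lists, and in all gene bodies 33% were. Among the 475 genes at least as long as kis, 28 had a higher share of the body in Kismet peaks, and 9 of all 17684 genes had more Kismet peaks. Among the 4159 genes with Kismet peaks, 64 had more Kismet base pairs that none of those 5 lists held. The gene therefore stood high in the list by several measures without being alone at the top of any.

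trr encodes the lysine 4 methyltransferase of the fly MLL3/4-type complex and spans 8638 bp at X:1881313-1889950 (FBgn0023518). It held no Kismet peak, in the body or within 1 kb. Trr peaks covered 4379 bp (50.7%) in 4 peaks of 308, 179, 353 and 3539 bp, which began 1059 bp inside one end and stopped 522 bp short of the other. RNA Pol II peaks covered 513 bp (5.94%), and both of them entered trr only at its ends: one of 3479 bp reached 193 bp into the gene from over Coa8, which overlaps trr by 120 bp, and one of 2054 bp reached 320 bp in from over mRpL16, which lies 305 bp away. Extension by 1 kb took in 2513 bp of RNA Pol II peaks and added nothing to Trr. The other 4 lists had no peak there.

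The Dam-Trr transgene carries the trr genomic sequence from the start to the stop codon and the same caution holds as for kis. None of the 4379 bp of Trr peaks in trr lay in a peak of any of the other 6 lists. In the other 9 genes 93.7% of the Trr base pairs did, and in all gene bodies 96.3% did. Of the 3625 genes with Trr peaks, 0 had more Trr base pairs outside all other lists than trr. Among the 2256 genes at least as long, 38 had a higher share of the body in Trr peaks. Which part of these 4 peaks comes from transgene DNA was not tested.

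**Figure D3:**
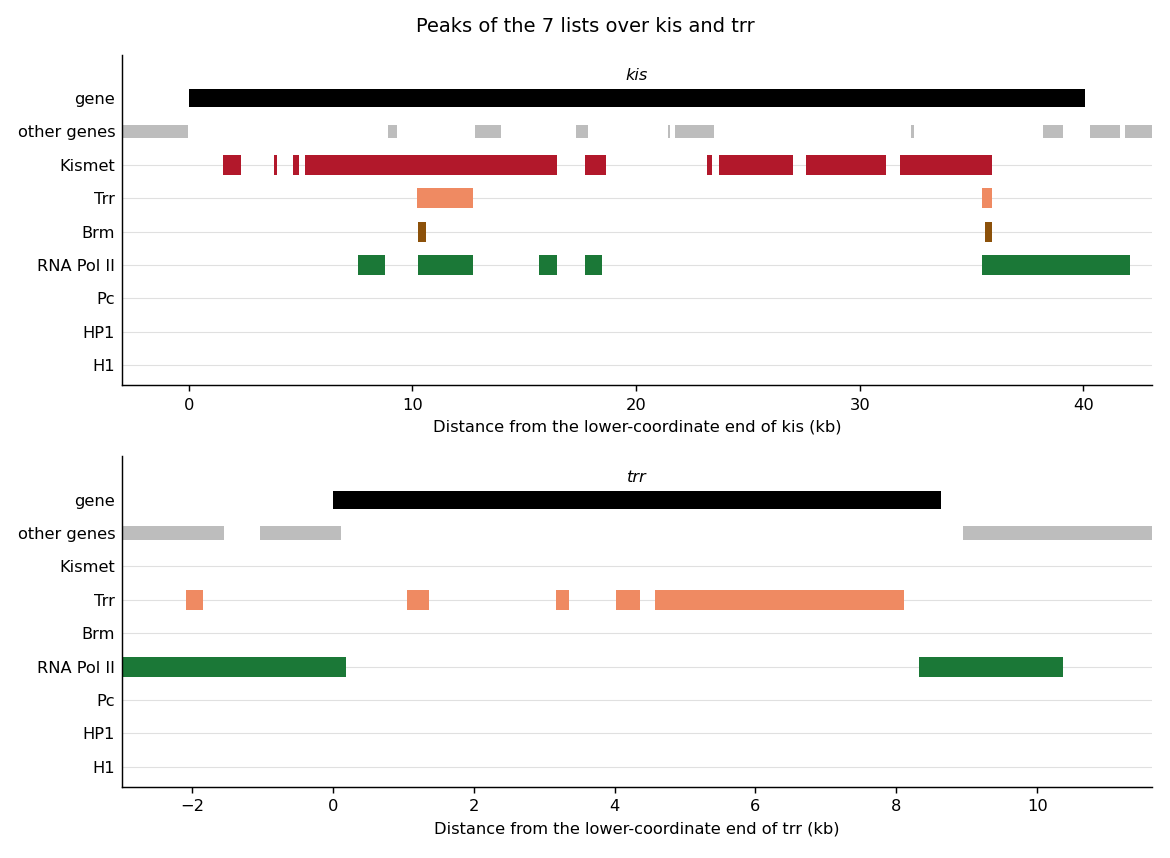
Peaks of the 7 lists (coloured bars, one row per list) over kis (upper panel) and trr (lower panel), with the gene in black and other annotated genes in grey. The horizontal axis gives the distance in kb from the lower-coordinate end of the gene. The 9 Kismet peaks fill most of kis while Trr and Brm peaks sit at 2 places in it, and the 4 Trr peaks of trr face empty rows in every other list, RNA Pol II peaks covering only the ends.

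The genes of the other fusions ranged widely. brm had 1 Brm peak of 228 bp (1.78% of the body), and Pc had none in the Pc list. Outside the 10, the gene of HP1a had no HP1 peak, and had 131 bp of Trr peaks and 24.5% of its 1497 bp in RNA Pol II peaks. Polr2A, which encodes the largest subunit of RNA Pol II, had 7008 of its 7527 bp (93.1%) in RNA Pol II peaks, and 8 of the 2512 genes at least as long had a higher share. Which subunit the Pol II fusion carries is not given in the sources used here. His1 lies in the histone gene repeats, where reads cannot be placed on one copy, and the copy that was looked up had 0 bp in all 7 lists.

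trx encodes a lysine 4 methyltransferase and spans 23546 bp at 3R:14263358-14286903 (FBgn0003862). Kismet peaks covered 5849 bp (24.8%) in 3 peaks, Trr peaks 2953 bp (12.5%) in 3 peaks and RNA Pol II peaks 3030 bp (12.9%) in 3 peaks. All of them lay towards the higher-coordinate end, the first beginning 13888 bp into the gene. Of the Trr base pairs 86.6% lay in Kismet peaks and 64.3% of the RNA Pol II base pairs lay in Trr peaks. The last Kismet peak was 17655 bp long and only 3709 bp of it fell in trx, while 11779 bp fell over the next gene, red. trx had no Brm, Pc, HP1 or H1 peak.

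brm encodes the ATPase of the Brahma remodelling complex and spans 12788 bp at 3L:15970082-15982869 (FBgn0000212). Its Kismet peaks covered 327 bp (2.56%), one of them only 11 bp long, the span of 2 GATC sites that nearly touch. Trr peaks covered 884 bp (6.91%) in 2 peaks and RNA Pol II peaks 2155 bp (16.9%) in 2 peaks. The protein-coding genes CG17026, CG17029, CG17028 and CG17027 are nested in brm, and most of this coverage fell on them: 239 of the 327 Kismet bp, 701 of the 884 Trr bp and 1626 of the 2155 RNA Pol II bp. The 228-bp Brm peak lay outside them, 2669 bp into the gene, where no other list had a peak. Without the nested genes brm kept 88 bp of Kismet, 183 bp of Trr and 529 bp of RNA Pol II peaks.

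Pc encodes the chromodomain reader of methylated lysine 27 and spans 11883 bp at 3L:21306138-21318020 (FBgn0003042). It was the least covered of the 10. Trr covered 171 bp (1.44%), as the part inside the gene of a 228-bp peak across its higher-coordinate end, and RNA Pol II covered 444 bp (3.74%) in 1 peak that ended 176 bp before that end. No Kismet, Brm, Pc, HP1 or H1 peak came within 1 kb of it. E(z), the lysine 27 methyltransferase of PRC2, spans 3556 bp at 3L:10634575-10638130 (FBgn0000629) and had 468 bp (13.2%) in the Kismet, the Trr and the RNA Pol II list alike. The Kismet peak lay at 3L:10637663-10638425, and the Trr and RNA Pol II peaks lay at 3L:10637663-10638625. All ran out over the higher-coordinate end towards Cnep1r2, a gene only 15 bp away, of which they covered 280 bp in the Kismet list and 480 bp in the Trr and RNA Pol II lists. They cannot be given to one gene or the other.

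**Figure D4:**
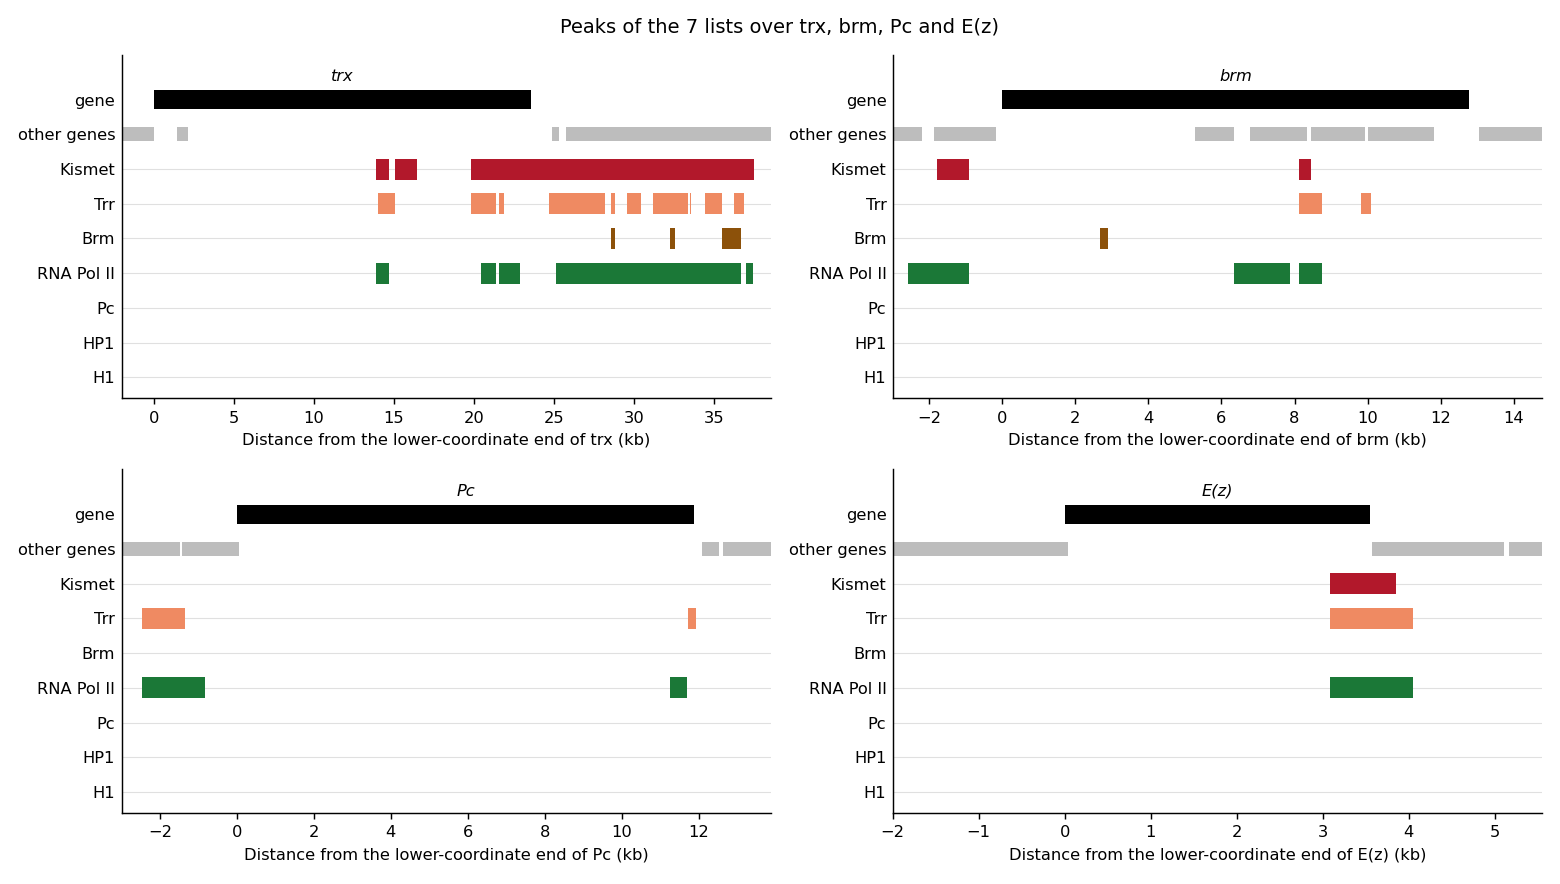
Peaks of the 7 lists (coloured bars, one row per list) over trx, brm, Pc and E(z), with the gene in black and other annotated genes in grey. Horizontal axes give the distance in kb from the lower-coordinate end of each gene. Peaks of trx start 13.9 kb into the gene, those of brm lie mostly over genes nested in it, and those of Pc and E(z) lie at the higher-coordinate end.

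The 4 genes with Pc peaks were all among the 6 Polycomb group members. With 5.21% of all genes and 12.5% of genes of like length carrying Pc peaks, the 0 of 4 trithorax group members is near the background and is no result about them. The 4 genes are 2 pairs of neighbouring paralogues, Psc with Su(z)2 on 2R and ph-d with ph-p on X, so they are not independent cases. Psc, a RING finger subunit of PRC1, spans 14998 bp at 2R:12965997-12980994 (FBgn0005624). Pc peaks covered 13095 bp (87.3%) of it in 3 peaks, and 14 of the 1398 genes at least as long had a higher share. Su(z)2 spans 11411 bp at 2R:12996501-13007911 (FBgn0265623). Pc peaks covered 11376 bp (99.7%) of it in 2 peaks, and 2 of the 1787 genes at least as long had a higher share.

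A single Pc peak of 18629 bp began 194 bp before the higher-coordinate end of Psc, covered all 15506 bp between the genes and ended 2929 bp into Su(z)2. Pc peaks joined over gaps of at most 2 kb, a limit chosen after the values were seen, made a domain of 90862 bp, 2R:12952490-13043351, with 7 peaks over 94.2% of its length. It ranked 2 by length among 1127 such domains. Only 3 further annotated genes touched it, CG13321, CG33798 and lncRNA:CR44339.

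Kismet peaks were also present in this domain, over 22974 bp. Kismet covered 3892 bp (34.1%) of Su(z)2 in 2 peaks, one across each end of the gene, and 194 bp (1.29%) of Psc in 1 peak across its higher-coordinate end. All of these base pairs lay inside Pc peaks. Neither gene had a Trr, Brm, HP1 or H1 peak in its body. The RNA Pol II list, which shares its Dam-only samples with Kismet, had 194 bp in Psc and 0 bp in Su(z)2. Between the genes Kismet peaks covered 3482 bp, Trr peaks 1290 bp, RNA Pol II peaks 592 bp and Brm peaks 167 bp of the 15506 bp.

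ph-p and ph-d encode the Polyhomeotic subunits of PRC1, and unlike Psc and Su(z)2 both carried Trr peaks along with Kismet, RNA Pol II and Pc peaks. ph-p spans 12162 bp at X:2126210-2138371 (FBgn0004861). Pc peaks covered 7559 bp (62.2%) of it in 3 peaks, Trr 4440 bp (36.5%) in 1 peak, and Kismet and RNA Pol II 3823 bp (31.4%) each in 1 peak. An HP1 peak of 329 bp (2.71%) was the only HP1 peak in any of the 10 genes. ph-d spans 7560 bp at X:2115727-2123286 (FBgn0004860). Kismet and RNA Pol II peaks covered 2038 bp (27%) each, Trr 1349 bp (17.8%) and Pc 1099 bp (14.5%), in 1 peak each.

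At both genes the Kismet, Trr and RNA Pol II peaks lay across the higher-coordinate end. At ph-d the Kismet and the RNA Pol II peak were 3504 bp long and the Trr peak 3171 bp, and all 3 ran on into the 2923 bp that separate the genes, of which Pc peaks covered 2792 bp. At ph-p the Kismet peak was 4317 bp long, the RNA Pol II peak 4307 bp and the Trr peak 5190 bp. Pc peaks held 2738 bp (71.6%) of the Kismet and 3355 bp (75.6%) of the Trr base pairs in ph-p, and 1099 bp (53.9% and 81.5%) in ph-d. The genes are a tandem duplication with long stretches of near-identical sequence. How reads that fit both were placed is not given in the sources used here, so the split of the coverage between ph-p and ph-d is uncertain.

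**Figure D5:**
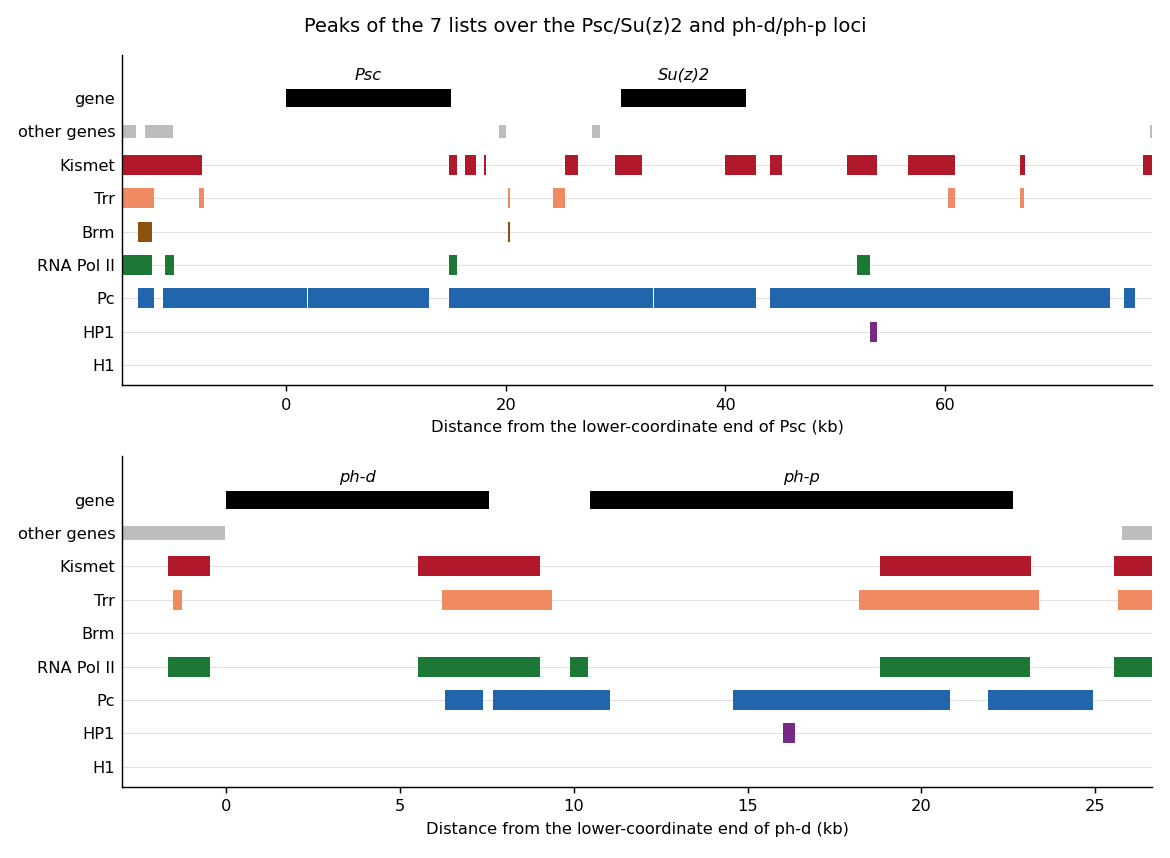
Peaks of the 7 lists (coloured bars, one row per list) over Psc and Su(z)2 (upper panel) and over ph-d and ph-p (lower panel), with the members in black and other annotated genes in grey. Horizontal axes give the distance in kb from the lower-coordinate end of Psc and of ph-d. Pc peaks run almost unbroken through Psc and Su(z)2, with Kismet peaks at the gene ends, while at ph-d and ph-p the Pc peaks are shorter and share ground with Kismet and Trr peaks.

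Base pairs in peaks of both Pc and Kismet, or of both Pc and Trr, made up a larger share of the peaks in these genes than in all gene bodies. Summed over the 10, 7923 bp lay in both a Kismet and a Pc peak, which is 19.2% of the Kismet and 23.9% of the Pc base pairs, against 2.1% and 9.5% in all gene bodies. For Trr and Pc the sum was 4454 bp, all in ph-p and ph-d, which is 25.3% of the Trr and 13.4% of the Pc base pairs, against 1.05% and 1.62% in all gene bodies. Such shares rise with the coverage of the lists. Pc peaks covered 22.6%, Kismet peaks 28.1% and Trr peaks 12% of the 10 bodies, against 3.24%, 14.7% and 5.08% of all gene bodies. The 19.2% and 23.9% for Kismet with Pc lie below the members' own Pc and Kismet coverage, with kis included. Leaving out kis and trr, which had no Pc peaks, these shares were 47.8% and 23.9%. Kismet coverage without kis was 15.6%, so the 23.9% then lies above it. Pc coverage without these genes was not counted. The 25.3% and 13.4% for Trr with Pc lie little above their Pc and Trr coverage. Leaving out kis and trr, they were 43.4% and 13.4%. In all gene bodies, by contrast, the shares of both pairs lie below the coverage there. The sums over the 10 genes rest on the same 2 loci and the difference from all gene bodies was not tested.

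Kismet and Trr peaks met in 6 of the 10 genes, kis, trx, brm, E(z), ph-p and ph-d, against 15.3% of all genes with peaks of both, and in all 6 a Kismet and a Trr peak shared at least 1 bp of the body. The 15.3% is not matched for length. Among genes of like length 52% had Kismet and 43.8% had Trr peaks, and the share with both was not counted. Psc and Su(z)2 had Kismet without Trr, and trr and Pc had Trr without Kismet. Summed over the 10 genes, 11464 bp lay in both lists, 27.8% of the Kismet and 65.2% of the Trr base pairs, against 30.2% and 88.2% in all gene bodies. Leaving out kis and trr, the genes of the 2 fusions, the shares were 51.3% and 82.9%. All 618 bp of Brm peaks in kis lay in Kismet peaks, and the Brm peak of brm met neither Kismet nor Trr.

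Where peaks lay relative to the gene ends was looked at after the values were seen, and no contrast between the groups was tested. A Kismet peak wholly inside the body was present in kis, trx and brm, 3 of the 8 members with Kismet peaks, against 42.5% of the 4159 genes with Kismet peaks. In E(z), Psc, Su(z)2, ph-p and ph-d every Kismet peak crossed an end, as did the peak that gave 3709 of the 5849 Kismet bp in trx. A Trr peak wholly inside was present in kis, trr, trx and brm, 4 of 8, against 54.8% of the genes with Trr peaks, and an RNA Pol II peak wholly inside in kis, trx, brm and Pc, 4 of 9, against 26.3%. A long body has more room for a whole peak, and these comparison shares are over genes of any length. The median is 12022.5 bp for the 10 and 1710 bp for all genes. Within 1 kb of the higher-coordinate end, 8 of the 10 genes had RNA Pol II peaks, against 35.9% of all genes, and 6 had Kismet peaks, against 19.5%. Within 1 kb of the lower-coordinate end 5 had RNA Pol II peaks, against 36% of all genes, and 3 had Kismet peaks, against 19.3%. The annotation used carries no strand, so these ends could not be read as starts or stops of transcription, and peaks at an end shared with a close neighbour belong to both genes.

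The wider groups had lower shares for Kismet, Trr, RNA Pol II and Pc than the 10. Of 17 other Polycomb group genes 4 had Kismet, 8 Trr, 1 Brm, 12 RNA Pol II, 1 Pc and 2 HP1 peaks, and of 34 other trithorax group genes 7 had Kismet, 9 Trr, 3 Brm, 25 RNA Pol II, 0 Pc and 6 HP1 peaks, with no H1 peak in either group. For Kismet that is 23.5% and 20.6%, against 23.5% of all genes, and for Trr 47.1% and 26.5%, against 20.5% of all genes. For RNA Pol II it is 70.6% and 73.5%, against 41.5%, and for HP1 11.8% and 17.6%, against 4.64%. For Brm it is 5.88% and 8.82%, against 5.95%, and for Pc 5.88% and 0%, against 5.21%. No share matched for the length of these genes was counted. Many of these genes are shorter than the 10, and the difference was not tested. Among the Polycomb group, jing, the gene of a PRC2 accessory factor, 119787 bp long, had the most Kismet (52390 bp, 43.7%) and was the only one with Pc peaks (15826 bp, 13.2%). Kdm2, a histone demethylase gene, had 4202 bp of Kismet, 5586 bp of Trr (52%) and 5912 bp of RNA Pol II peaks in 10751 bp. phol, a DNA-binding protein gene, had 1000 bp of Kismet and 349 bp of Trr peaks, and Asx, a subunit gene of the PR-DUB deubiquitinase, had 469 and 1069 bp.

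Among the 34 other trithorax group genes, skd, osa and Mi-2 led both the Kismet and the Trr count. The list of 34 was drawn widely and includes 4 genes entered only as other remodellers, Mi-2 among them. skd, a Mediator subunit gene, had 20228 bp (58.4%) of Kismet and 17840 bp (51.5%) of Trr peaks. osa, a Brahma complex subunit gene, had 17641 bp (57.8%) and 11700 bp (38.3%), and Mi-2, a CHD remodeller gene, had 12849 bp (45.6%) and 11268 bp (40%). None of the 13 genes of other COMPASS and COMPASS-like subunits had a Kismet peak, and 2 had a Trr peak, while 10 had RNA Pol II peaks. Over all genes the shares were 23.5% for Kismet, 20.5% for Trr and 41.5% for RNA Pol II. These 13 genes are few and span 655 to 15617 bp, so their Kismet and Trr counts are no result about them. The longest HP1 coverage was 13816 of 15617 bp in Hcf and 7811 of 9160 bp in pho, both on chromosome 4, and 10914 of 21475 bp in vtd on 3L and 9068 of 22268 bp in sxc on 2R, genes named here after their values were seen.

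For the members with peaks in at least 3 lists, the most similar genes over the 7 shares of the body were sought among genes of at least 2 kb outside these lists. ATP8B came closest to kis, at a Euclidean distance of 2.61 percentage points over the 7 lists, with 61.2% of its body in Kismet, 6.47% in Trr, 3.56% in Brm and 23% in RNA Pol II peaks, and CG10011 followed at 2.96. wake (2.1) and CG42788 (3.34) were nearest to trx, CG12177 (3.15) and Atg4a (3.26) to brm, beta-Spec (0.991) and Hsp22 (1.34) to E(z), and lncRNA:CR43681 (1.84) and mab-21 (1.85) to Psc. The ph genes had no close match. dsx was nearest to ph-p at 24.7 percentage points, with 28.3% in Kismet, 15.8% in Trr and 52.4% in Pc peaks, and CG31102 followed at 26. CG6126 (11.3) and alpha-Est3 (11.7) were nearest to ph-d.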

How the data were processed

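The 7 peak lists of targeted DamID-seq were used, 1 per fusion, each deposited as positions only. The authors aligned reads to Drosophila release 6 with Bowtie2 in the damidseq_pipeline, extended them to 300 nucleotides or the next GATC site, counted coverage per site with bedtools, dropped sites with a mean below 5 counts, compared 3 fusion with 3 Dam-only samples per site by DESeq2 and merged 2 or more consecutive sites with an adjusted p below 0.01 and positive enrichment. Peak starts were taken as 0-based, since in 1005 cases the last GATC site of one peak was the first of another, and are printed 1-based with both edge sites included.

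Gene bodies came from the RefSeq table of release 6, without strand or exons. A gene counted as having a peak from 1 bp of overlap. Sums over all genes count shared bases once per gene, and overlaps between lists used merged bodies. The genes named were the 10 members, genes within 1 kb of them, the 3 genes of each wider list with most base pairs in Kismet, Pc or Trr peaks, the 2 most similar genes per member and 3 genes of other fusions. Of 18 other Polycomb group genes listed, 17 were matched, and all 34 of the trithorax group. The members and lists were chosen with earlier results of these data known. The overlap functions were tested on simulated data against a count base by base. Python and matplotlib were used. No sequence is printed, as no genome was used here.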

Additional observations from a re-analysis of the deposited data

How the results depend on the processing

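Of 49 recounts of the members with peaks, 36 stayed within 1.5 times the count and 13 did not. Asking for 500 bp gave 5 genes for Kismet, 1 for Brm and 0 for HP1, and asking for 10% of the body gave 5 for Trr, 0 for Brm and 0 for HP1. Keeping only peaks of at least the median length of their list gave 5 for Kismet, 1 for Brm and 0 for HP1, and leaving out brm gave 1 for Brm. The shares of all genes at 500 bp, at 10% and with long peaks were not counted, so these counts have no background beside them. Asking for a peak wholly inside the body, an alternative chosen after seeing the data, gave 3 for Kismet, 4 for Trr and 4 for RNA Pol II. Over all genes of any length the shares with such a peak were 9.99%, 11.2% and 10.9%. Counts for Pc and H1 did not move beyond that limit. The 6 genes with both Kismet and Trr peaks were recounted with the 1 kb extension and with 1 bp common to both peaks, and stayed at 6. By the values of each gene, asking for 500 bp in both lists keeps only kis, trx, ph-p and ph-d. Asking for 10% of the body in both keeps only trx, E(z), ph-p and ph-d. The joint count is thus lower under both settings, and the other stricter settings were not run on it.

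The share of the summed bodies left the 95% Wilson interval of the main value, with each base pair taken as 1 count, in 18 of 28 recounts. Base pairs of a peak are called together and are not independent counts. That interval is therefore too narrow and measures no uncertainty of the shares. Only 2 recounts differed by over 1.5 times, Kismet without kis and HP1 with long peaks. With long peaks only, the share was 24.4% for Kismet, 10.2% for Trr, 0.421% for Brm, 11.1% for RNA Pol II and 0% for HP1. Without bases of other genes it was 28.8% for Kismet, 12.5% for Trr, 0.627% for Brm, 14.6% for RNA Pol II and 24.6% for Pc. Without the gene of the fusion it was 15.6% for Kismet, 9.58% for Trr, 0.462% for Brm and 24.6% for Pc. With 1 kb on each side it was 0.508% for Brm, 17.6% for RNA Pol II, 24% for Pc and 0.197% for HP1.

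No paired analysis was possible because the peak lists hold no values per replicate, and leaving out a replicate could not be run for the same reason. Depth is unknown, a base pair share follows GATC spacing as well as binding, and the members' values cannot be told apart from the effects of gene length, neighbouring genes and, in the Kismet peaks of kis, the Trr peaks of trr and the Brm peak of brm, transgene DNA.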
